A study of Mus musculus with 11 samples.

Results

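Cells sorted from E16.5 mouse kidneys on a Cited1 reporter were compared with cells sorted at the same stage on a Six2 reporter, using 6 of the 11 messenger RNA libraries of the series. The libraries were taken by their labels, and no measured value chose them. The Cited1+ libraries (n = 3) came from Cited1tagRFP/+ kidneys, and the Six2+ libraries (n = 3) came from Six2TGC/+ kidneys. The other 2 groups are given for orientation only, P2 Six2+ cells (n = 2; postnatal day 2) and the E16.5 Six2- remainder of the sort (n = 3), both from Six2TGC/+ animals. All donors were CFW mice, an outbred stock. Six2TGC is a transgene that makes a GFP and Cre fusion from Six2 regulatory DNA, so every Six2+ and Six2- library carries it and no Cited1+ library does. Nothing in the labels ties a library to an animal, so p-values cover the scatter among these libraries, part of which may be technical. Xist, the RNA of the inactive X chromosome, stood at 0.0498, 425.3 and 0.401 TPM in Cited1+ replicates 1, 2 and 3, while Ddx3y on the Y chromosome stood at 65.6, 0 and 51.8 TPM. The Six2+ libraries each held both transcripts (Xist 60.5 to 177.2 TPM; Ddx3y 20.3 to 36.8 TPM). The Cited1+ libraries therefore differ in the sex of their cells, while each Six2+ library holds cells of both sexes.

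The groups were deposited in separate tables: Cited1+ stands with P2 Six2+, and Six2+ stands with Six2-. Sorting marker, reporter line and table coincide in these 6 libraries and cannot be told apart. A gene is said here to split by table when its 5 values in the Cited1+ and P2 table all lie above, or all below, its 6 values in the other table. Levels are in TPM, per transcript length after each library was rescaled to a total of 1000000. A signed value in parentheses after levels is the log2 fold change, Cited1+ over Six2+. Low values imply 22600000 to 29400000 reads in Cited1+ and 31500000 to 42200000 in Six2+ libraries. Cited1+ replicate 3 listed 20737 genes above 0, against 15009 to 17496 in the other 10 libraries, and 2572 of them were above 0 in no other library, at a median of 0.281 TPM and 0.0961% of its total.

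The mammalian nephron grows from the cap mesenchyme, a layer of progenitors around each ureteric bud tip. The transcription factor Six2 keeps these cells undifferentiated, and the transcriptional co-regulator Cited1 marks the least committed of them. Wnt9b from the bud and Wnt4 made by the induced cells drive progenitors into a pretubular aggregate, which becomes the renal vesicle and then podocytes, proximal tubule, loop of Henle and distal tubule. The bud itself branches into the collecting duct under Gdnf from the cap.

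Both sorts held nephron progenitor RNA, and the genes behind the sorts differed from each other in pattern. Six2 stood at 808, 1135 and 807 TPM in Cited1+ libraries, and at 841, 810.5 and 1018 TPM in Six2+ libraries. These ranges overlap, and the log2 fold change was 0.03 (SE 0.17, limma adjusted p = 0.922). Cited1 stood at 566, 584 and 605 TPM in Cited1+ libraries, and at 115, 133 and 87.2 TPM in Six2+ libraries, so all Cited1+ values lay above all Six2+ values. The Cited1 difference follows from the sort and is a description. P2 Six2+ libraries held 8.79 and 14.4 TPM of Cited1, with Six2 at 399.5 and 449 TPM. The Six2- remainder held 7.66 to 46.3 TPM of Six2 and 1.51 to 13.7 TPM of Cited1, the highest of both in its replicate 3.

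Meox2, a homeobox gene, followed Cited1. It stood at 66.6, 90.1 and 62.6 TPM in Cited1+ libraries and at 14.7, 12.2 and 11.9 TPM in Six2+ libraries (log2 fold change 2.40, SE 0.18, adjusted p = 2.04e-05). The groups did not overlap, and both P2 Six2+ and Six2- cells averaged below 2 TPM (1.79 and 1.52). Wnt4, the inducer of epithelial conversion, fell. It stood at 26.0, 23.4 and 29.2 TPM in Cited1+ libraries and at 176, 145 and 174 TPM in Six2+ libraries (log2 fold change -2.61, SE 0.15, adjusted p = 4.71e-06). P2 Six2+ cells, in the same table as Cited1+, averaged 677 TPM of Wnt4, so it does not split by table. These cells also differ from Cited1+ cells in stage, marker and line. The part of the tables in the Wnt4 difference was not tested.

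Six3, a homeobox gene next to Six2 and best known from forebrain and eye, gave the largest fall among genes that do not split by table. It was listed at 0, 0 and 0.52 TPM in Cited1+ libraries, and stood at 141, 96.8 and 115 TPM in Six2+ libraries. The log2 fold change was -6.67 (SE 0.23, adjusted p = 3.84e-07). P2 Six2+ libraries, deposited beside Cited1+, held 124 and 118 TPM, and the Six2- remainder averaged 2.45 TPM. Six3 was thus above 90 TPM in each of the 5 Six2+ libraries from Six2TGC/+ kidneys and below 1 TPM in each Cited1tagRFP/+ library. Sorting marker and reporter line cannot be told apart for it. In the RefSeq annotation of GRCm38 (mm10), Six3 lies on chromosome 17 from 85613608 to 85626191 and Six2 from 85662736 to 85688254, and the start sites of their RefSeq promoters are 67420 bases apart.

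The 250 bases before 4 starts are shown, for the neighbours Six3 and Six2, whose levels part between the sorts, and for Wnt4 and Sp5, which fell together. They are from RefSeq (GRCm38.p6), each read 5′ to 3′ on its gene's strand. Six3 is chr17:85620584-85620833 (plus), Six2 is chr17:85688255-85688504 (minus), Wnt4 is chr4:137277385-137277634 (plus) and Sp5 is chr2:70474673-70474922 (plus).
Six3: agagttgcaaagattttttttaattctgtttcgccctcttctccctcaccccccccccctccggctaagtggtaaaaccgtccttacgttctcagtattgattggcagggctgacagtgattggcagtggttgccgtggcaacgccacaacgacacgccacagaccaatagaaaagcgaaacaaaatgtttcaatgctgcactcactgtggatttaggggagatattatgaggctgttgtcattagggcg
Six2: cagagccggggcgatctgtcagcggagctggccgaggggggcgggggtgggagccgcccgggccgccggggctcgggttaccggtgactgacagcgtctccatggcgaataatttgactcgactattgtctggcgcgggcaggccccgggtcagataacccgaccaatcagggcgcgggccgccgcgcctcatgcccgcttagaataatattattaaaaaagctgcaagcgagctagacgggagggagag
Wnt4: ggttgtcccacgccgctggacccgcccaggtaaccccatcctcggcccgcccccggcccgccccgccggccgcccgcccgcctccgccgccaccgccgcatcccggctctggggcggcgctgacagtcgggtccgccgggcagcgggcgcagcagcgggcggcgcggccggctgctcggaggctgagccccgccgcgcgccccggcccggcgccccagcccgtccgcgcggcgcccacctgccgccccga
Sp5: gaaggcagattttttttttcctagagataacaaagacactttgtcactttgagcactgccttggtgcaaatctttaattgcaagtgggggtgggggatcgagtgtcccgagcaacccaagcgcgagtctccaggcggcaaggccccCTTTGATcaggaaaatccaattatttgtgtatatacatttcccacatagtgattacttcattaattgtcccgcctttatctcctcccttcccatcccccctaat
Capitals mark CTTTGAT, a core sequence recognised by Tcf and Lef factors, searched on both strands (its other strand reads ATCAAAG). Sp5 held 1 match, beginning 104 bases before its start, and the other 3 stretches held none. Of 32851 mouse promoters of the same length, 1053 (3.21%) held the motif. A match is a stretch of letters and does not show that a factor binds there.

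Slc12a1, the sodium, potassium and chloride transporter of the thick ascending limb, was the largest rise among genes that do not split by table. It stood at 95.2, 88.7 and 120 TPM in Cited1+ libraries, and at 0.562, 1.69 and 0 TPM in Six2+ libraries. The log2 fold change was 5.97 (SE 0.32, adjusted p = 3.12e-06). P2 Six2+ libraries held 19.9 and 1.49 TPM, and the Six2- remainder averaged 0.643 TPM. The Cited1+ libraries were thus the highest of all 4 groups for this marker of a mature segment. In bulk libraries, fewer cells of a type and less RNA per cell cannot be told apart.

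**Figure D1:**
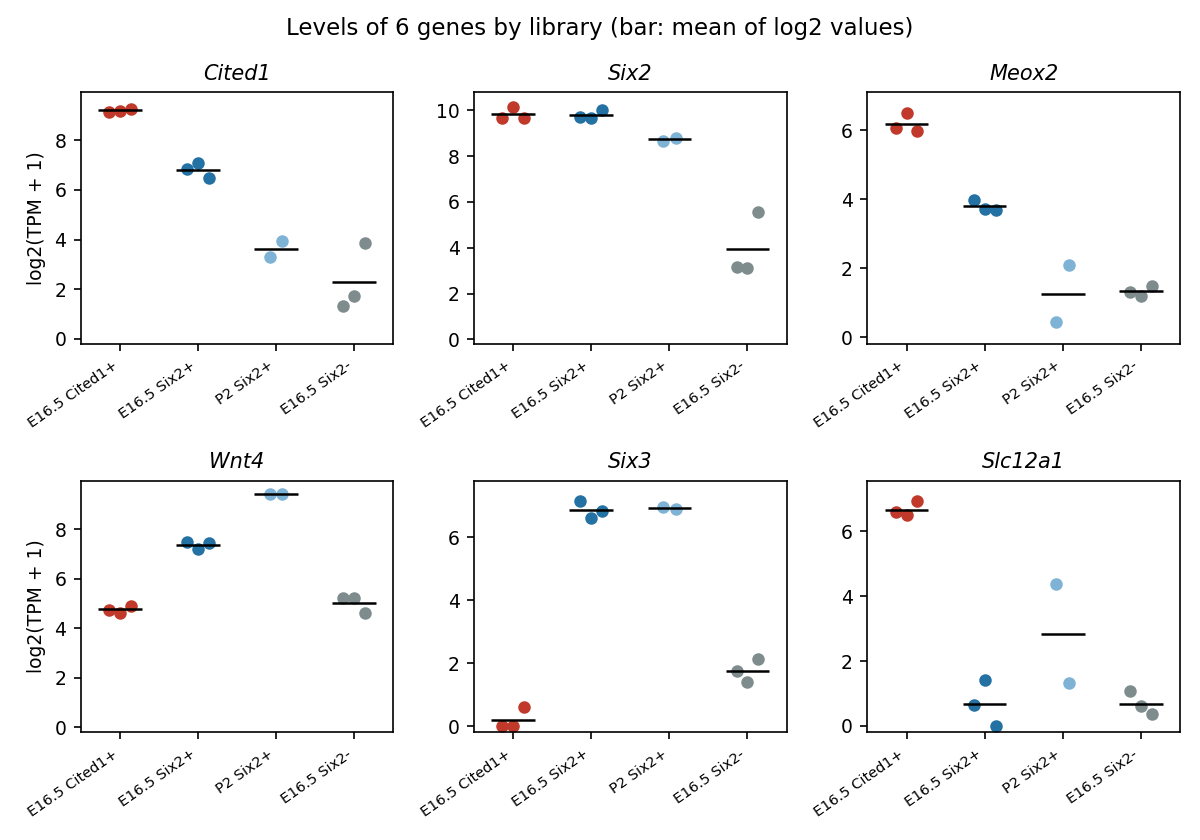
Levels of Cited1, Six2, Meox2, Wnt4, Six3 and Slc12a1 as log2(TPM + 1), with 1 point per library and a bar at each group's mean of log2 values. Cited1 and Meox2 are highest in E16.5 Cited1+ libraries, Six2 overlaps between the E16.5 sorts, Six3 is near 0 in Cited1+ and above 90 TPM in all Six2+ libraries, and Slc12a1 is highest in Cited1+.

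Across 13011 genes with a mean of at least 1 TPM in the 6 libraries, 2212 were higher (17.0%) and 526 lower (4.04%) in Cited1+ cells at a limma adjusted p below 0.05. These shares are the background for the list counts of the main fit below. Without single libraries the counts of all genes moved too, from 1177 to 2513 higher and from 229 to 445 lower. A list count without a library is therefore not set against the shares of the main fit. With a log2 fold change of at least 1 as well, 1038 were higher (7.98%) and 154 lower (1.18%). Of the higher genes 1337 (10.3% of those tested) did not split by table, and of the lower genes 354 (2.72%) did not. The remaining 875 higher (6.73%) and 172 lower (1.32%) called genes split by table. Of all genes tested, called or not, 1454 (11.2%) split with the Cited1+ table higher and 474 (3.64%) with it lower. The median log2 fold change of all genes was 0.12. It was -0.01 with median of ratios scaling and -0.04 with the values as deposited, and the share of calls that were higher was then 61.1% and 56.1%, against 80.8% with a common total. Without Cited1+ replicate 1 the counts were 1177 higher and 229 lower, without Cited1+ replicate 2 they were 1214 and 262, and without Six2+ replicate 1 the lower count was 275. Ribosomal protein genes took 15.4% to 18.9% of the total in Cited1+ libraries and 16.4% to 23.5% in Six2+ libraries, the highest in Six2+ replicate 2. With the common total taken without the 50 highest genes and the ribosomal protein genes, 2424 genes were higher and 721 lower, the median was 0.09 and 77.1% of the calls were higher.

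**Figure D2:**
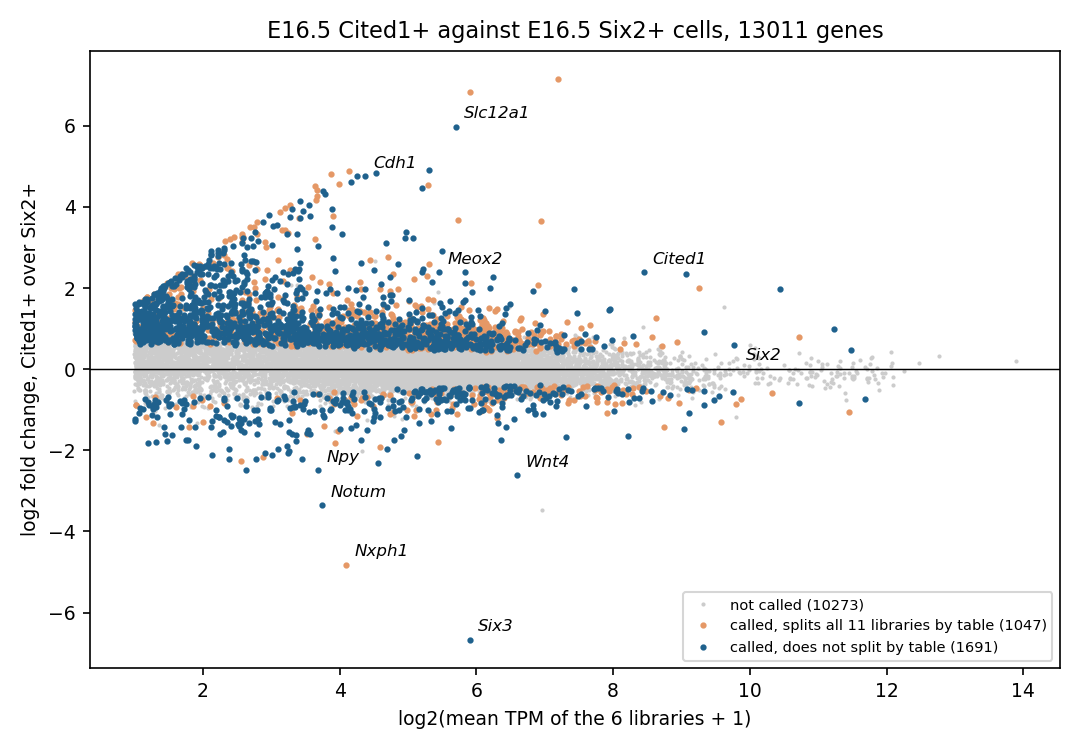
Log2 fold change, E16.5 Cited1+ over E16.5 Six2+, against log2 of the mean TPM of the 6 libraries plus 1, for 13011 genes. Blue genes were called and do not split by table (1691), orange genes were called and split by table (1047), and grey genes were not called; rises outnumber falls, and Six3 and Slc12a1 lie at the ends of the blue points.

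The nephron progenitor genes moved both ways. Of 34 genes on the list 33 were tested, 15 were higher and 6 lower, with a median log2 fold change of 0.39 beside 0.12 for all genes. Of these, 10 higher and 6 lower genes did not split by table. Cited1, whose difference follows from the sort, is among the 15 and among the 10. Without Cited1+ replicate 2 the higher count was 8. The summed level of the list was 6765 to 8165 TPM in Cited1+ libraries and 4947 to 6553 TPM in Six2+ libraries, against 1411 to 1732 TPM in Six2- cells. In both E16.5 groups at least 32 of the 34 genes stood at 1 TPM or more in every library, and none was listed at 0 throughout a group.

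Among the higher progenitor genes, Traf1, an adaptor of tumour necrosis factor receptors, stood at 88.9, 51.6 and 56.2 TPM in Cited1+ and at 8.81, 16.94 and 16.49 TPM in Six2+ libraries (log2 fold change 2.15, SE 0.28, adjusted p = 0.000525). Phf19, a Polycomb accessory protein, averaged 94.1 ± 1.98 TPM in Cited1+ and 33.8 ± 3.37 TPM in Six2+ libraries (SD, n = 3 each; log2 fold change 1.45). Meox1, the paralog of Meox2, averaged 123 ± 10.4 TPM in Cited1+ and 47.5 ± 4.49 TPM in Six2+ libraries (1.35). Their P2 Six2+ levels were lower than in either E16.5 group, at 0.928 and 2.07 TPM for Traf1, 3.64 and 3.17 TPM for Phf19, and 11.7 and 11.8 TPM for Meox1. The groups did not overlap for any of the 3 genes, as for 3891 of all genes with Cited1+ higher (29.9%) and 1660 with it lower (12.8%). Across the 3 sorts of progenitors these 3, Cited1 and Meox2 stood highest in Cited1+ and lowest in P2 Six2+ libraries. Not all higher members kept this order. P2 Six2+ means lay above both E16.5 means for Tmem100 (96.0 TPM), Pax2 (1056 TPM), Six4 (23.2 TPM) and Smoc2 (9.44 TPM). Pax2, a transcription factor required for nephron formation, averaged 555 ± 173 TPM in Cited1+ and 238 ± 91.5 TPM in Six2+ libraries (log2 fold change 1.25), but it splits by table. So does Itga8, the integrin subunit that cap cells use toward the bud (218 ± 15.4 TPM in Cited1+ and 102 ± 36.1 TPM in Six2+ libraries; 1.16).

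The 6 lower members included genes that are themselves progenitor markers. Fgf20, a progenitor survival factor, stood at 10.9, 6.32 and 12.4 TPM in Cited1+ and at 35.8, 40.1 and 44.5 TPM in Six2+ libraries (log2 fold change -1.96, SE 0.23, adjusted p = 0.00033). Crym, a thyroid hormone binding protein, stood at 418, 230 and 436 TPM in Cited1+ and at 751, 849 and 612 TPM in Six2+ libraries (-1.07, adjusted p = 0.0122). Osr1, an early transcription factor of the kidney lineage, averaged 78.7 ± 15.4 TPM in Cited1+ and 146 ± 28.8 TPM in Six2+ libraries (-0.88), and the secreted protein gene Nell1 averaged 79.3 ± 12.4 TPM in Cited1+ and 172 ± 27.1 TPM in Six2+ libraries (-1.10). In all 4 the groups stood apart. Their P2 Six2+ means were below both E16.5 means, at 6.71 TPM for Fgf20, 32.5 TPM for Crym, 33.8 TPM for Osr1 and 34.7 TPM for Nell1. Of the tested members 12 did not pass, among them Eya1, the phosphatase partner of Six2 (307 ± 64.9 TPM in Cited1+ and 216 ± 45.5 TPM in Six2+ libraries; log2 fold change 0.51, adjusted p = 0.0981). Sall1 (0.35), Wt1 (0.39) and Uncx (0.14), transcription factors of the cap, also did not pass, and the values of each of these 3 overlapped between the groups.

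Genes of early nephron commitment split into opposite directions. Of 31 tested, 13 were higher and 6 lower, with a median log2 fold change of 0.24. Of these 10 and 6 did not split by table. The lower members were Wnt4, Npy, Bmp2, Lef1, Bmper and Pax8. Npy, a neuropeptide gene, stood at 1.81, 4.57 and 2.54 TPM in Cited1+ and at 19.9, 26.8 and 15.9 TPM in Six2+ libraries (log2 fold change -2.49, SE 0.28, adjusted p = 0.000242). Its P2 Six2+ level was 319 and 334 TPM. Bmp2, a bone morphogenetic protein, stood at 2.43, 2.44 and 3.35 TPM in Cited1+ and at 13.9, 10.1 and 19.4 TPM in Six2+ libraries (-2.01), with 75.7 and 91.6 TPM in P2 Six2+ cells. Pax8, a transcription factor of induced mesenchyme, averaged 92.0 ± 19.5 TPM in Cited1+ and 142 ± 19.5 TPM in Six2+ libraries (-0.63, adjusted p = 0.0322), against 929 and 859 TPM at P2. For Wnt4, Npy, Bmp2, Lef1 and Pax8 the Cited1+ libraries were the lowest and the P2 Six2+ libraries the highest of the 3 progenitor sorts. With the values as deposited and with median of ratios scaling, 10 members of the list were lower, and 9 and 14 were higher.

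The higher members included Irx1, Pou3f3 and Irx2, transcription factors that pattern the forming tubule and that later segments also express. Irx1 stood at 19.7, 22.2 and 34.1 TPM in Cited1+ and at 0.215, 0.58 and 0.0885 TPM in Six2+ libraries (log2 fold change 4.33, SE 0.25, adjusted p = 4.71e-06). Pou3f3 (4.17) splits by table, with 22.9 ± 2.25 TPM in Cited1+, 0.323 ± 0.0619 TPM in Six2+ and a mean of 21.0 TPM in P2 Six2+ libraries. Lhx1 and Jag1, which mark the renal vesicle, did not pass. Lhx1 stood at 10.3, 9.37 and 10.96 TPM in Cited1+ and at 12.3, 11.5 and 9.82 TPM in Six2+ libraries (-0.12, adjusted p = 0.669), against 230.5 and 251 TPM at P2. Jag1 averaged 20.6 ± 1.66 TPM in Cited1+ and 23.5 ± 2.23 TPM in Six2+ libraries (-0.18), with 178.5 and 180.03 TPM at P2. Markers of mature tubule and collecting duct, given below, were higher in the same libraries as Irx1, and their part in these rises was not tested.

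Wnt genes were grouped as ligands, receptors, and targets or antagonists. Of 8 ligands tested, 3 were higher and 1, Wnt4, was lower (median -0.12). Wnt9b and Wnt7b, almost absent from Six2+ libraries, passed the filter on low values only through their Cited1+ level. The counts were 1 higher and 2 lower with the values as deposited, 3 and 2 with median of ratios scaling, and 0 and 1 with a mean of at least 5 TPM. Wnt9b, the bud signal to the cap, stood at 3.95, 2.04 and 4.28 TPM in Cited1+ and at 0.0281, 0.0661 and 0.0202 TPM in Six2+ libraries (log2 fold change 2.05, adjusted p = 0.000329). Wnt7b, made by the collecting duct stalk, averaged 4.14 ± 0.452 TPM in Cited1+ and 0.0573 ± 0.0455 TPM in Six2+ libraries (2.28) and splits by table. Of 20 receptors and R-spondins 6 were higher and 2 lower (median 0.27), and 2 higher and 1 lower did not split by table. The higher count was 3 without any single Cited1+ library, and the lower count was 4 without Six2+ replicate 2 and 6 with the values as deposited or median of ratios scaling. Fzd10, a Frizzled receptor, stood at 1.19, 1.35 and 1.73 TPM in Cited1+ and at 11.8, 8.82 and 10.1 TPM in Six2+ libraries (-2.21, adjusted p = 5.44e-05).

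Of 20 Wnt targets and antagonists 4 were higher and 4 lower (median 0.19), beside 17.0% higher and 4.04% lower of all genes. The higher count was 2 without Cited1+ replicate 2, and the counts were 1 higher and 5 lower with the values as deposited and 1 and 4 with a mean of at least 5 TPM. Notum, a secreted enzyme that inactivates Wnt proteins and is induced by Wnt signalling, stood at 1.14, 1.22 and 1.85 TPM in Cited1+ and at 25.2, 19.3 and 25.9 TPM in Six2+ libraries (log2 fold change -3.35, SE 0.21, adjusted p = 5.72e-06). Sp5, a transcription factor that is a direct target of beta-catenin, stood at 3.16, 1.46 and 2.92 TPM in Cited1+ and at 13.7, 9.63 and 14.5 TPM in Six2+ libraries (-1.97, adjusted p = 0.000545). Lef1, a nuclear partner and target of beta-catenin, averaged 2.68 ± 0.794 TPM in Cited1+ and 8.06 ± 1.06 TPM in Six2+ libraries (-1.32), and the Wnt antagonist Frzb averaged 18.3 ± 1.71 TPM in Cited1+ and 42.5 ± 5.89 TPM in Six2+ libraries (-1.17). The groups stood apart for each of these, and P2 Six2+ means were higher than both, at 51.8 TPM for Notum, 19.7 TPM for Sp5 and 58.7 TPM for Lef1. Axin2, the most used readout of the pathway, did not pass at 40.1 ± 6.73 TPM in Cited1+ and 52.9 ± 10.4 TPM in Six2+ libraries (-0.38, adjusted p = 0.179). The antagonist Sfrp1, which is high in stroma, rose (38.4 ± 2.17 TPM in Cited1+ and 8.19 ± 0.863 TPM in Six2+ libraries; 2.10), with a mean of 226 TPM in the Six2- remainder.

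Fibroblast growth factor ligands changed against each other. Of 11 ligands and receptors tested 4 were higher and 2 lower (median 0.25), beside 17.0% and 4.04% of all genes. Fgf9 and Fgf20 are related ligands that act together on progenitor maintenance. Fgf9 stood at 6.53, 8.21 and 8.62 TPM in Cited1+ and at 0.812, 0.592 and 0.287 TPM in Six2+ libraries (log2 fold change 2.50, adjusted p = 3.93e-05), and it splits by table. Fgf8, a survival signal of the forming vesicle, averaged 31.1 ± 3.93 TPM in Cited1+ and 6.41 ± 1.80 TPM in Six2+ libraries (2.14) and splits by table, at 30.3 and 32.9 TPM in P2 Six2+ cells. Fgf20 fell, as given above, while Fgf10 fell by 0.49 on the log2 scale (adjusted p = 0.048), and the lower count was 1 when any library other than Six2+ replicate 3 was left out. Of 17 response genes 5 were higher and 1 lower (median 0.23), the higher count was 3 without Cited1+ replicate 2, and the lower count ran from 0 to 2 without single libraries. Etv4 (-0.06) and Etv5 (0.23), transcription factors induced by this signalling, did not pass.

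Of 7 genes of the Gdnf and Ret axis 3 were higher and 1 lower (median 0.29), and the lower count was 0 without Cited1+ replicate 1 or with the values as deposited. Gdnf, the cap signal that draws the bud, stood at 105, 108 and 73.1 TPM in Cited1+ and at 52.6, 35.4 and 70.5 TPM in Six2+ libraries (log2 fold change 0.87, adjusted p = 0.033), a call that was lost without some single libraries (adjusted p 0.0748 to 0.129). Its receptor Ret, a marker of the bud tip, averaged 3.18 ± 0.940 TPM in Cited1+ and 0.413 ± 0.0849 TPM in Six2+ libraries (1.54). Of 19 Notch genes 2 were higher and 1 lower (median 0.11), beside 17.0% and 4.04% of all genes, and each of these calls was lost without some single libraries. Of 27 genes of bone morphogenetic protein and transforming growth factor beta signalling 9 were higher and 6 lower (median 0.30), and without Cited1+ replicate 1 or replicate 2 the higher count was 4. Among the lower genes, Bmp4 averaged 13.8 ± 0.814 TPM in Cited1+ and 32.5 ± 5.97 TPM in Six2+ libraries (-1.17). Id1, a target of the pathway, stood at 136, 74.7 and 238 TPM in Cited1+ and at 321, 357 and 656 TPM in Six2+ libraries (-1.64, adjusted p = 0.0152), and without Cited1+ replicate 2 the adjusted p was 0.0562. Bmp7, a maintenance signal of the cap, did not pass (159 ± 12.6 TPM in Cited1+ and 176 ± 33.2 TPM in Six2+ libraries; -0.13).

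In the families of Six2, Eya1, Dach1 and Cited1, which act in shared transcriptional complexes, 5 of 13 genes tested were higher and 3 lower (median 0.42). Of these 2 and 3 did not split by table, and of all genes tested 17.0% were higher and 4.04% lower. The 2 higher genes are Cited1, whose difference follows from the sort, and Cited4. The higher count was 3 without Six2+ replicate 2, Cited1+ replicate 1 or Cited1+ replicate 2, and the lower count was 1 without Six2+ replicate 1, Six2+ replicate 3, Cited1+ replicate 1 or Cited1+ replicate 3. Eya2 averaged 40.5 ± 6.78 TPM in Cited1+ and 17.6 ± 1.84 TPM in Six2+ libraries (log2 fold change 1.15) and Eya4 averaged 113 ± 30.5 TPM in Cited1+ and 58.5 ± 13.4 TPM in Six2+ libraries (0.93), both splitting by table. Cited4 rose without splitting (6.38 ± 1.45 TPM in Cited1+ and 1.45 ± 0.264 TPM in Six2+ libraries; 1.58). Cited2, the widely expressed paralog of Cited1, was lower at 147 ± 35.9 TPM in Cited1+ and 222 ± 6.0 TPM in Six2+ libraries (-0.62, adjusted p = 0.0301).

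**Figure D3:**
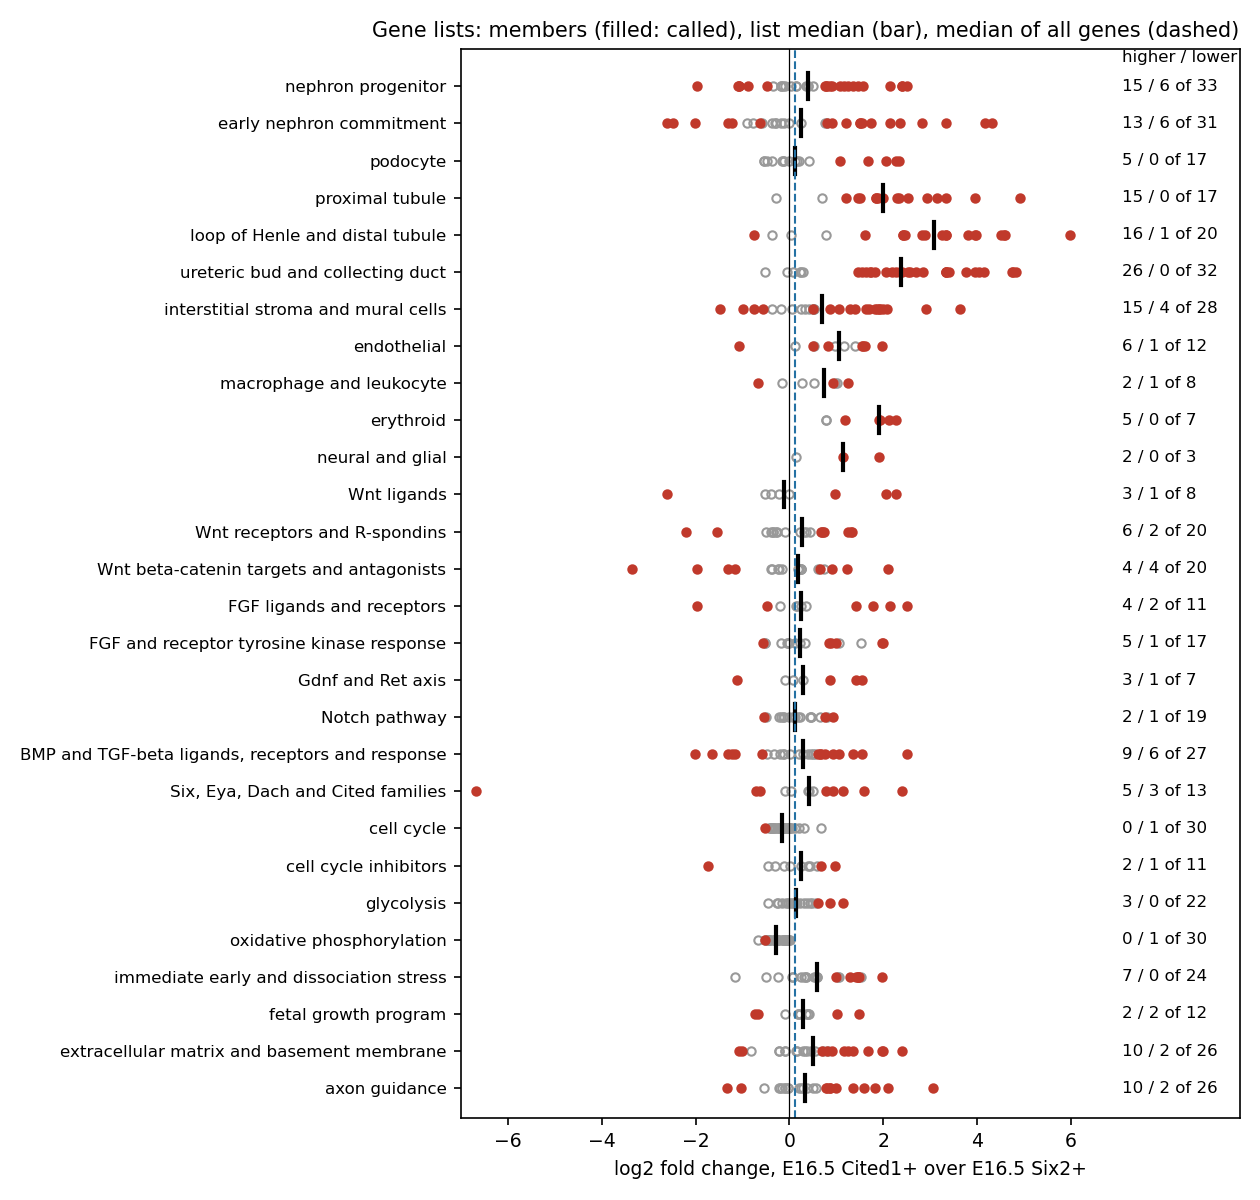
Log2 fold change, E16.5 Cited1+ over E16.5 Six2+, for each tested member of 28 gene lists, filled where called, with the list median as a black bar and the median of all genes as a dashed line; numbers at the right give members higher and lower of those tested. The loop of Henle and distal tubule, ureteric bud and collecting duct, and proximal tubule lists have the highest medians, at 3.08, 2.38 and 2.0.

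Genes of mature nephron segments and of the collecting duct were higher in Cited1+ cells. The filter takes the mean over both groups, so members almost absent from Six2+ libraries were tested only through their Cited1+ level. Such members could hardly be called lower. This limits what a lack of lower genes, the counts and the medians show, here and for the cell type lists that follow. For the loop of Henle and distal tubule, 20 of the listed genes were tested, and 16 were higher and 1 lower, with a median log2 fold change of 3.08, and 8 higher genes did not split by table. Of 22 genes on that list 19 stood at 1 TPM or more in every Cited1+ library and 3 did in every Six2+ library, where Pvalb was listed at 0 throughout. The summed level was 487 to 528 TPM in Cited1+ and 138 to 174 TPM in Six2+ libraries, and 147 to 197 TPM in Six2- libraries. Most of the Six2+ sum came from Wnk1 and Ppp1r1a, which averaged 76.7 and 70.4 TPM there and did not pass. Gata3 and Calb1 also stand on the collecting duct list, and Emcn on the endothelial list. Besides Slc12a1, the Wnt and bone morphogenetic protein antagonist Sostdc1 stood at 32.8, 26.8 and 41.1 TPM in Cited1+ and at 0.254, 1.19 and 0 TPM in Six2+ libraries (4.60, adjusted p = 7.28e-06). Umod, the uromodulin gene of the thick ascending limb, stood at 4.50, 8.05 and 20.3 TPM in Cited1+ and at 0.986, 1.02 and 0.588 TPM in Six2+ libraries (2.46) and splits by table, with P2 Six2+ at 19.1 and 1.48 TPM. The single lower gene, the oxytocin receptor gene Oxtr, kept its call without Six2+ replicate 2 and lost it without any other single library.

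Of 32 ureteric bud and collecting duct genes tested 26 were higher and none lower (median 2.38), 16 of the 26 did not split by table, and 1 gene was lower with the values as deposited or median of ratios scaling. Aqp2 (means 17.3 TPM in Cited1+ and 0.0422 TPM in Six2+), Ehf (6.67 and 0.0523 TPM) and Upk3a (5.57 and 0 TPM) were among members that passed the filter only through Cited1+. Of 33 genes on the list 32 stood at 1 TPM or more in every Cited1+ library and 12 did in every Six2+ library, where the urothelial gene Upk3a was listed at 0 throughout. Cdh1, the epithelial cadherin, stood at 36.9, 38.8 and 41.4 TPM in Cited1+ and at 0.272, 0.849 and 0.391 TPM in Six2+ libraries (4.75, SE 0.20, adjusted p = 8.08e-07). Tfcp2l1, a transcription factor of distal and collecting duct epithelium, stood at 38.6, 31.1 and 38.1 TPM in Cited1+ and at 0.397, 0.49 and 0.197 TPM in Six2+ libraries (4.76). The tight junction genes Cldn4 (4.84) and Cldn8 (4.14) and the transcription factor Gata3 (3.96) behaved alike, with all Cited1+ values at or above 13.7 TPM and all Six2+ values below 1 TPM. The Six2- remainder averaged 10.1 TPM of Cdh1, 3.10 TPM of Tfcp2l1 and 3.91 TPM of Cldn4, so Cited1+ libraries were the highest group. The summed level of the list was 1051 to 1203 TPM in Cited1+ and 515 to 683 TPM in Six2+ libraries. Cap progenitors also express some of its genes: Gfra1, the Gdnf co-receptor, averaged 179 ± 3.04 TPM in Cited1+ and 173 ± 40.0 TPM in Six2+ libraries and Etv4 averaged 176 ± 8.81 TPM in Cited1+ and 185 ± 29.1 TPM in Six2+ libraries, and neither passed. Wnt11, which marks the bud tip, did not pass either (4.62 ± 1.07 TPM in Cited1+ and 7.01 ± 1.48 TPM in Six2+ libraries; -0.51).

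Of 17 proximal tubule genes tested 15 were higher and none lower (median 2.0), 11 did not split by table, and 9 were higher with the values as deposited. Of 20 on the list 17 stood at 1 TPM or more in every Cited1+ library and 4 did in every Six2+ library, and the summed level was 234 to 274.5 TPM in Cited1+ and 47.1 to 57.8 TPM in Six2+ libraries. Cdh16, a cadherin of tubule epithelium, stood at 78.1, 65.1 and 83.3 TPM in Cited1+ and at 1.03, 3.10 and 0.963 TPM in Six2+ libraries (4.91, SE 0.28, adjusted p = 4.66e-06). Hnf4a, which drives proximal identity, stood at 7.55, 8.11 and 7.64 TPM in Cited1+ and at 0.122, 0.257 and 0.0784 TPM in Six2+ libraries (2.93). Here the Six2- remainder lay between the groups, at a summed 179 to 218 TPM.

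Of 17 podocyte genes tested, 5 were higher and none lower, with a median of 0.12, the value for all genes. Podxl, the sialomucin podocalyxin, averaged 12.8 ± 3.90 TPM in Cited1+ and 1.78 ± 0.276 TPM in Six2+ libraries (2.27). The summed level overlapped, at 897 to 956 TPM in Cited1+ and 842 to 1116 TPM in Six2+ libraries, against 1831 to 3216 TPM in Six2- libraries. Of 18 genes, 17 stood at 1 TPM or more in every Cited1+ library and 14 did in every Six2+ library. The counts were 3 higher and 3 lower with the values as deposited, 5 and 4 with median of ratios scaling, and 5 and 2 without Six2+ replicate 2. With a mean of at least 5 TPM they were 2 and 0.

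**Figure D4:**
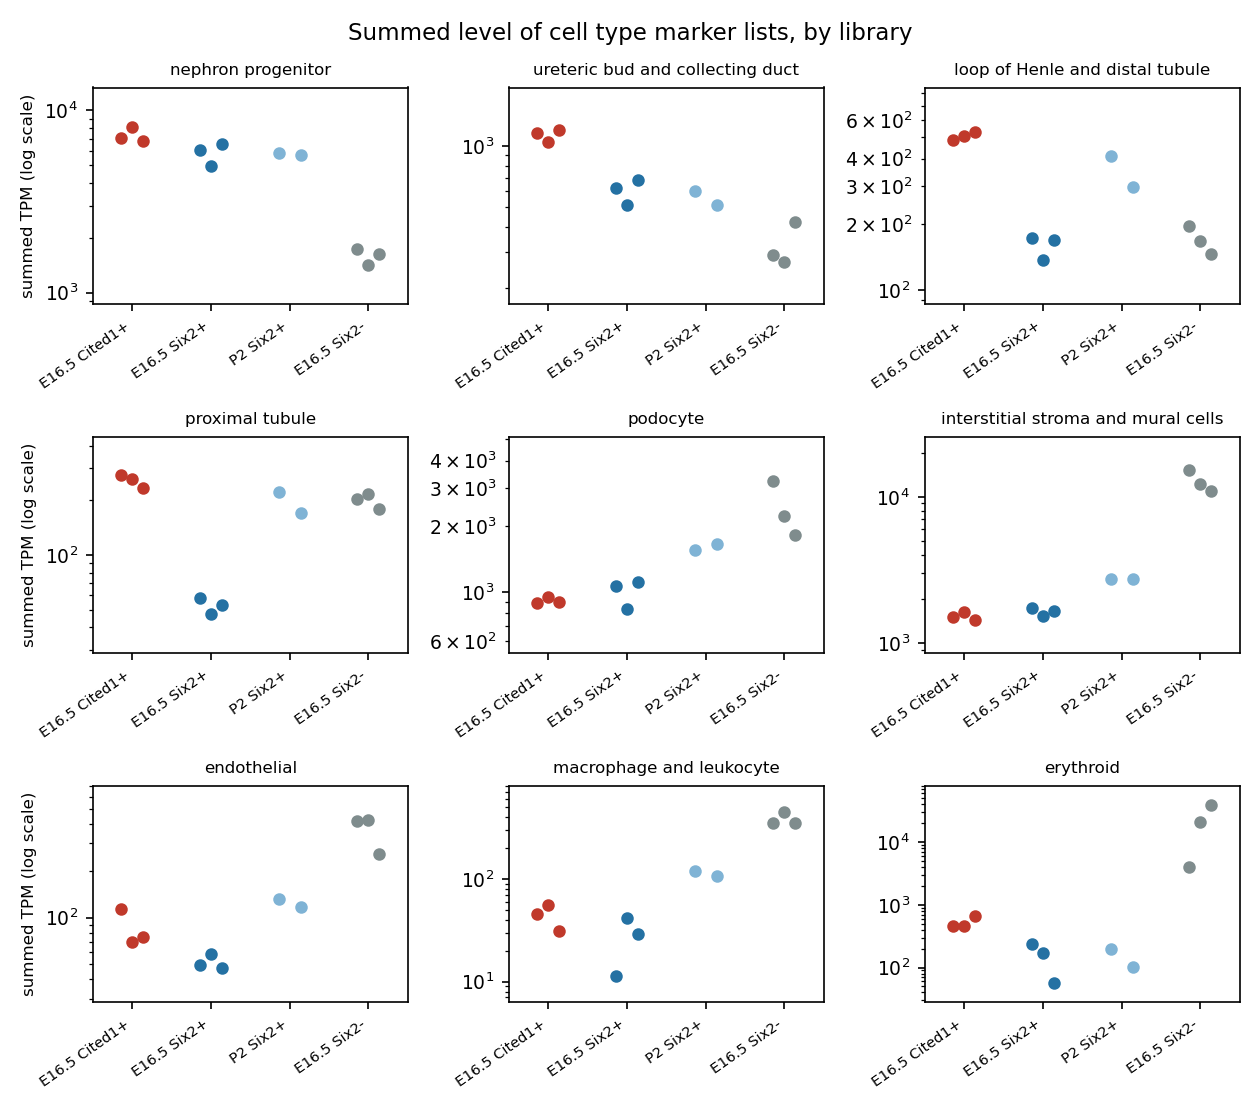
Summed TPM, on a log scale, of 9 marker lists, with 1 point per library. Nephron progenitor sums are lowest in Six2- libraries, the tubule and collecting duct lists are higher in every Cited1+ than in every Six2+ library, and stroma, endothelial, macrophage and erythroid sums are highest in Six2- libraries.

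Markers of stroma, vessels and blood were examined in the same way. Their counts in the main fit stand beside 17.0% higher and 4.04% lower of all genes. Of 28 stroma and mural genes tested 15 were higher and 4 lower (median 0.70), and 15 and 3 did not split by table. Col3a1, a fibrillar collagen of stroma, stood at 81.9, 74.3 and 77.8 TPM in Cited1+ and at 10.2, 15.2 and 5.35 TPM in Six2+ libraries (2.91, adjusted p = 0.000102), against a mean of 2299.9 TPM in Six2- libraries. Ren1, the renin gene of juxtaglomerular cells, stood at 7.17, 12.6 and 18.4 TPM in Cited1+ and at 0, 0.126 and 0 TPM in Six2+ libraries (3.63). The 4 lower members were Des, Lama4, Foxd1 and Aldh1a2. Foxd1, a transcription factor of cortical stroma, stood at 42.8, 43.3 and 54.0 TPM in Cited1+ and at 120, 66.7 and 103 TPM in Six2+ libraries (log2 fold change -0.999, splitting by table), and Aldh1a2, a retinoic acid synthesis enzyme, averaged 279 ± 30.7 TPM in Cited1+ and 772 ± 57.7 TPM in Six2+ libraries (-1.47, adjusted p = 7.59e-05). The summed level overlapped, at 1437 to 1636 TPM in Cited1+ and 1537 to 1736 TPM in Six2+ libraries. Aldh1a2, which was lower in Cited1+, had the largest mean of the list in both groups. The overlap of the sums therefore does not show equal levels of the other members, of which 15 were higher. Of 29 genes, 27 stood at 1 TPM or more in every Cited1+ library and 22 did in every Six2+ library.

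Of 12 endothelial genes tested 6 were higher and 1 lower (median 1.06), and the higher count was 3 without Six2+ replicate 1 or 2, 2 without Cited1+ replicate 1, and 0 with the values as deposited. Of all genes, 1177 of 12944 tested were higher without Cited1+ replicate 1, and 1576 of 11601 with the values as deposited. Cdh5, the endothelial cadherin, stood at 7.55, 3.51 and 2.76 TPM in Cited1+ and at 0.159, 0.824 and 0.115 TPM in Six2+ libraries (1.98, adjusted p = 0.00236). The list summed to 69.3 to 114 TPM in Cited1+, 47.6 to 58.2 TPM in Six2+ and 258 to 423 TPM in Six2- libraries. Of 8 leukocyte genes 2 were higher and 1 lower (median 0.73), and the higher count was 0 without Cited1+ replicate 1 or 3, 1 without Cited1+ replicate 2 and 4 without Six2+ replicate 2. With the values as deposited 0 were higher and 0 lower. The lower gene, Coro1a, was lost without any single library. That list summed to 31.0 to 55.3 TPM in Cited1+ and 11.3 to 41.3 TPM in Six2+ libraries, against 349 to 452 TPM in Six2- libraries. Of 7 erythroid genes 5 were higher (median 1.91), summing to 455 to 662 TPM in Cited1+ and 57.6 to 233 TPM in Six2+ libraries, and haemoglobin genes, whose near-identical copies cannot be told apart, took 0.045% to 0.065% of the total in Cited1+ and 0.006% to 0.023% in Six2+ libraries. In every Cited1+ library 9 of 18 endothelial, 8 of 18 leukocyte and 7 of 14 erythroid genes stood at 1 TPM or more, and in every Six2+ library 4, 3 and 6 did. The embryonic globin gene Hbb-bh1 was listed at 0 throughout both groups, and Hba-x and Hbb-y throughout Six2+. Of 3 neural and glial genes tested 2 were higher, Elavl4 (1.92, splitting by table) and Nefl (1.14). That list summed to 50.4 to 68.1 TPM in Cited1+ and 17.0 to 24.2 TPM in Six2+ libraries, where Th was listed at 0 throughout. The part of these cell types, and of the tubule and collecting duct markers, in the other differences was not tested.

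Few genes of the cell cycle and of energy metabolism passed the test. Counts of the main fit in this paragraph stand beside 17.0% higher and 4.04% lower of all genes. Other settings have other backgrounds. Of all genes, 1278 of 12972 tested were lower with median of ratios scaling and 1232 of 11601 with the values as deposited. Without Cited1+ replicate 1, 229 of 12944 were lower. Of 30 cell cycle genes none was higher and 1 was lower, Cdk1 (77.3 ± 7.65 TPM in Cited1+ and 111 ± 9.87 TPM in Six2+ libraries; log2 fold change -0.52, adjusted p = 0.0269), which splits by table. The median was -0.15, and at an unadjusted limma p below 0.05 there were 1 higher and 9 lower, beside 3489 higher (26.8%) and 1228 lower (9.44%) of all genes at that threshold. By other settings 8 genes were lower with median of ratios scaling, 10 with the values as deposited and 3 with the total taken without the highest and ribosomal protein genes, and 0 were without Six2+ replicate 1, Cited1+ replicate 1 or Cited1+ replicate 2. The proliferation marker Mki67 overlapped between the groups, at 246 ± 69.9 TPM in Cited1+ and 157 ± 55.4 TPM in Six2+ libraries. Of 11 cell cycle inhibitors 2 were higher and 1 lower (median 0.24), with 1 higher without Six2+ replicate 2 or any single Cited1+ library. Cdkn1a, the p21 inhibitor of the cell cycle, stood at 10.3, 12.3 and 12.9 TPM in Cited1+ and at 37.8, 44.0 and 43.8 TPM in Six2+ libraries (-1.74, SE 0.17, adjusted p = 7.65e-05), and Cdkn1b, the p27 inhibitor, averaged 51.9 ± 4.57 TPM in Cited1+ and 26.2 ± 4.95 TPM in Six2+ libraries (0.97). Of 22 glycolysis genes 3 were higher and none lower (median 0.14), with 1 higher without Six2+ replicate 1, Six2+ replicate 2 or Cited1+ replicate 1. Of 30 oxidative phosphorylation genes none was higher and 1 lower (median -0.29). At an unadjusted p below 0.05 there were 0 higher and 8 lower, beside the same 26.8% and 9.44% of all genes. The single call was lost without Six2+ replicate 1, Cited1+ replicate 1 or Cited1+ replicate 2. Of 12 genes of the fetal growth program 2 were higher and 2 lower (median 0.29), with 1 higher when any library other than Six2+ replicate 3 was left out. The lower 2 were the imprinted neighbours H19 (2166, 3226 and 2142 TPM in Cited1+; 4300.2, 4096 and 3867 TPM in Six2+) and Igf2 (503, 726 and 509 TPM in Cited1+; 1019, 809 and 913 TPM in Six2+). Their log2 fold changes were -0.73 and -0.67, and both calls were lost without Six2+ replicate 1, Cited1+ replicate 1 or Cited1+ replicate 3.

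Immediate early genes, which respond to tissue dissociation as well as to growth factors, were partly higher. Of 24 tested 7 were higher and none lower (median 0.58), beside 17.0% and 4.04% of all genes. The count was 2 without Six2+ replicate 2, 4 without Six2+ replicate 1, Cited1+ replicate 1 or Cited1+ replicate 2, and 15 without Six2+ replicate 3. Egr1 stood at 1961, 2442 and 2135 TPM in Cited1+ and at 355, 524 and 907 TPM in Six2+ libraries (log2 fold change 1.97, SE 0.28, adjusted p = 0.00108). Fos stood at 971, 728 and 1617 TPM in Cited1+ and at 148, 357 and 899 TPM in Six2+ libraries (1.53, adjusted p = 0.0696) and did not pass. Six2+ replicate 3 was the highest of its group for both genes, and only for Fos did it exceed the lowest Cited1+ library.

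Of 26 genes of matrix and basement membrane 10 were higher and 2 lower (median 0.51), and 9 and 2 did not split by table. Among all genes 17.0% were higher and 4.04% lower. Lama5, the laminin chain of mature epithelial basement membrane, stood at 111, 75.2 and 95.5 TPM in Cited1+ and at 15.7, 10.7 and 27.7 TPM in Six2+ libraries (2.40, adjusted p = 0.000388), and its P2 Six2+ and Six2- means were 29.5 and 14.7 TPM. Lama1, an early laminin chain of epithelia, averaged 32.0 ± 3.06 TPM in Cited1+ and 7.51 ± 2.23 TPM in Six2+ libraries (1.99). Of 26 axon guidance genes, a family that also acts in the kidney, 10 were higher and 2 lower (median 0.34), and the higher count was 6 without Cited1+ replicate 1 or replicate 2. Nrp2, a receptor for semaphorins and vascular growth factors, stood at 12.3, 14.4 and 13.3 TPM in Cited1+ and at 0.789, 0.412 and 1.03 TPM in Six2+ libraries (3.06, adjusted p = 9.54e-06). Robo2, a Slit receptor that limits the Gdnf domain, averaged 270 ± 59.9 TPM in Cited1+ and 158 ± 48.6 TPM in Six2+ libraries (0.80, adjusted p = 0.0439).

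Other genes among the largest changes lay outside the lists. Vegfc, a growth factor for lymphatic vessels, stood at 5.96, 6.85 and 8.14 TPM in Cited1+ and at 39.4, 37.7 and 37.6 TPM in Six2+ libraries (-2.31, adjusted p = 1.81e-05). Itih2, a hyaluronan binding protein gene, averaged 2.81 ± 0.103 TPM in Cited1+ and 17.0 ± 4.31 TPM in Six2+ libraries (-2.21), and Adcy8, an adenylate cyclase, averaged 2.02 ± 0.729 TPM in Cited1+ and 12.1 ± 2.94 TPM in Six2+ libraries (-2.12). C2cd4a averaged 13.3 ± 9.54 TPM in Cited1+ and 55.0 ± 15.4 TPM in Six2+ libraries (-2.15). P2 Six2+ means were 53.5 TPM for Vegfc, 6.79 TPM for Itih2 and 7.69 TPM for C2cd4a. On the other side, the keratin gene Krt7 averaged 24.7 ± 5.37 TPM in Cited1+ and 0.228 ± 0.262 TPM in Six2+ libraries (4.39), and the surface antigen gene Ly6a averaged 68.5 ± 17.8 TPM in Cited1+ and 3.18 ± 3.71 TPM in Six2+ libraries (4.46, adjusted p = 0.000451).

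For genes that split by table, the difference between sorts cannot be told apart from one between tables. Among rises, Mrgpra6, annotated as a transcribed pseudogene, stood at 77.6, 48.9 and 744 TPM in Cited1+ libraries and at 0 in every Six2+ library, with 38.2 and 59.0 TPM in P2 Six2+ and 0 in all Six2- libraries. The calcium binding gene S100g (4.89), the membrane protein gene Mal (4.57) and Fxyd2, a regulator of the sodium pump (4.53) were also higher. Among falls, Nxph1, a neurexin ligand gene, stood at 0.143, 0.138 and 0.215 TPM in Cited1+ and at 36.2, 28.8 and 31.0 TPM in Six2+ libraries (-4.82, adjusted p = 4.72e-07). Nxph1 was listed at 0 in both P2 Six2+ libraries and reached 0.505 TPM in Six2- libraries, so its level sets E16.5 Six2+ apart from the other 3 groups. Copine gene Cpne8 (-2.16), G protein regulator Rgs2 (-1.81) and Cd83 (-1.80) had Six2- levels close to or above those of Six2+, at means of 10.7, 18.8 and 105 TPM. Of genes with at least 5 TPM in all 5 libraries of the Cited1+ table and below 0.5 TPM in all 6 of the other, there were 6, and 0 the other way round. They were Mrgpra6, the defensin gene Defb1, and the gene models Gm12338, Gm3636, Gm4737 and Rpl14-ps1. Rpl14-ps1, a pseudogene of a ribosomal protein, stood at 106, 126 and 123 TPM in Cited1+ and at 0, 0 and 0.132 TPM in Six2+ libraries (6.84), whereas its parent Rpl14 averaged 1862 ± 22.4 TPM in Cited1+ and 1980.3 ± 358.5 TPM in Six2+ libraries.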

How the data were processed

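Messenger RNA of sorted kidney cells was prepared with the Qiagen RNeasy micro and Kapa stranded mRNA kits, per the labels' protocols. Tools in the submitters' processing notes are TopHat2, Partek and bcl2fastq 2.17, with build mm10. Use of strand in counting is not stated there, so overlapping or near-identical genes are uncertain. The deposited values are named TPM by the authors but scale as RPKM: library sums ran from 321882.9 to 433447.3, while length-weighted sums varied by 3.1%. Both deposited tables list the same 24454 rows, and 27 rows with a date for a symbol were left out (0.125% to 0.215% of a library), leaving 24427 genes. As each library was scaled by its own total, libraries were compared across tables after division to a sum of 1000000 (TPM). Low values fell within 0.05 of whole reads for 54.5% to 66.6% of cases (chance 10%), implying 16500000 to 43800000 reads, so depth is approximate and no counts were tested. The 4 columns of group means and the authors' fold and p-value columns were not used.

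E16.5 Cited1+ and Six2+ libraries, grouped by label, were fitted with limma 3.58.1 (R 4.3.3, trend) on log2(TPM + 1), a scale that understates changes of low genes, for genes averaging 1 TPM or more, with Benjamini-Hochberg adjustment and a threshold of 0.05. Fold changes are Cited1+ over Six2+ and two-sided; levels are mean ± SD. In simulated data of 13011 genes the fit found 46% of genes changed by 1 on the log2 scale and 95% of those changed by 2, and made 3 false calls. The changed genes were drawn from those with a mean log2(TPM + 1) above 2, so recovery of lower genes was not tested. Noise was Gaussian and independent with no difference between tables, so the false calls do not measure error from that source. Named genes were Six2, Cited1, Meox2, Wnt4, Six3 and Slc12a1, then the 10 largest rises and falls that do not split by table and the 4 each way that do. For these largest changes the groups lay apart, with a mean of at least 10 TPM in the higher group. Gene models, Xist, Tsix, Y chromosome and haemoglobin genes were skipped there, and other X-linked genes such as S100g were kept. Up to 4 called members with the largest change were named from each of 28 lists. Further list members, Xist, Ddx3y, Rpl14 and the genes found in a single table were named after their values were seen. Lists are described by counts and medians. Some genes that the rule names are not reported here. The members and lists were chosen with earlier results of these data known. Alternatives changed the scaling, pseudocount, filter, libraries fitted and replicate block.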

Additional observations from a re-analysis of the deposited data

How the results depend on the processing

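The main counts were 2212 higher and 526 lower genes (1337 and 354 not split by table). Lower genes rose in number to 1232 (787 not split) with the values as deposited and to 1278 (752) with median of ratios scaling, and fell to 286 (189) with no filter on low values, where 21164 genes were tested. With a mean of at least 5 TPM, 10740 genes were tested and the higher count was 1419 (735 not split). Leaving out each library in turn gave 1177 to 2513 higher genes (734 to 1590 not split) and 229 to 445 lower genes (164 to 330 not split); the remaining library counts assume that spread is shared. The cause of these moves was not tested beyond the numbers of genes and libraries. The number of genes that split by table was 1733 as deposited and 1950 with median of ratios scaling, against 1928. Same-numbered libraries did not vary together (correlations of deviations -0.124, -0.164 and -0.101), so no pairing by number was seen. With so few libraries these correlations cannot exclude pairing. A replicate block gave 1721 higher and 347 lower genes. Of 111 named genes 110 were called, and none reversed direction in any setting that tested it. The call was lost by 25 with no filter, 9 under the block and 5 with all 11 libraries in the fit. It was lost by 1 with a pseudocount of 0.1, 1 under another scaling and 21 without at least 1 library. Genes that a setting left untested were not counted as lost. With the values as deposited 99 named genes kept their status and 1 lost its call. With a mean of at least 5 TPM 90 kept their status and 1 lost its call. For gene lists, a mean of at least 5 TPM tests fewer members, and the higher counts were then 8 for early commitment, 6 for proximal tubule, 9 for loop and distal tubule, 17 for collecting duct, 5 for bone morphogenetic protein signalling, 1 for glycolysis, and 0 for endothelial and leukocyte genes. With no filter they were 8 for progenitors, 3 for Wnt receptors, 3 for fibroblast growth factor response, 0 for Notch, 4 for bone morphogenetic protein signalling, 3 for the Six2 and Cited1 families, 1 for glycolysis, 1 for erythroid, 6 for matrix and 2 for immediate early genes. With all 11 libraries in the fit 2 erythroid genes were higher, and 5 cell cycle, 4 oxidative phosphorylation and 2 podocyte genes were lower. Depth is known only from implied reads, so values below 1 TPM rest on few reads.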

Other observations

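Genes of the ion-transporting cells of the collecting duct, chosen after their values were seen, were also higher in Cited1+ libraries. Foxi1, the transcription factor of intercalated cells, stood at 6.88, 9.90 and 8.66 TPM in Cited1+ and at 0, 0.0254 and 0 TPM in Six2+ libraries, with a highest Six2- value of 0.139 TPM. Aqp2, the water channel of principal cells, stood at 22.6, 9.01 and 20.3 TPM in Cited1+ and at 0, 0.127 and 0 TPM in Six2+ libraries. The proton pump subunit gene Atp6v1b1, the ammonia transporter gene Rhcg and the sodium channel subunit genes Scnn1b and Scnn1g had log2 fold changes of 3.86, 3.26, 3.64 and 3.25. All 6 genes split by table, and P2 Six2+ libraries held 1.15 and 1.42 TPM of Foxi1 and 1.62 and 3.28 TPM of Aqp2.

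Siglecg and Afp were also chosen after their values were seen. Siglecg, a lectin gene known from B cells, stood at 27.0, 19.9 and 16.6 TPM in Cited1+ and at 0.434, 0.409 and 0.147 TPM in Six2+ libraries. Afp, a serum protein gene known from fetal liver, stood at 14.6, 15.0 and 29.3 TPM in Cited1+ and at 0.182, 0.945 and 0 TPM in Six2+ libraries. Neither splits by table, and no Six2- library exceeded 0.975 TPM of Siglecg or 3.49 TPM of Afp. The leukocyte list summed to 31.0 to 55.3 TPM in Cited1+ and 349 to 452 TPM in Six2- libraries. Which cells held Siglecg and Afp RNA was not tested.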
